A study of Homo sapiens with 42 samples.

Results

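The loci of 9 genes of epithelial identity (CDH1, EPCAM, ESRP1, GRHL2, KLF5, ELF3, OVOL2, CLDN4 and ST14) were examined, out of 19970 protein-coding genes treated in the same way. The genes were chosen by name for their known role in epithelia, with earlier results of these data known. Each locus was the RefSeq gene on GRCh38 with 50 kb on each side, and a peak belonged to a locus when its summit lay inside it. The data were ATAC-seq peak lists, which mark DNA that a transposase could enter, from 42 samples of 7 established human cancer cell lines, each called wild type in the labels. The carcinoma lines were 22RV1 (prostate adenocarcinoma), DU4475 (invasive breast carcinoma) and HCT116 (colorectal adenocarcinoma). The other lines were 92-1 (uveal melanoma), A375 (melanoma), RD (rhabdomyosarcoma) and MV411 (acute myeloid leukemia). Every line was treated for 4 h with DMSO, the negative control, or with FHT-1015, which inhibits both SMARCA4 and SMARCA2, and each group had 3 biological replicates. On GRCh38 CDH1 lies at chr16:68737292-68835537, EPCAM at chr2:47369311-47387020, ESRP1 at chr8:94641174-94707466 and GRHL2 at chr8:101492439-101681200. KLF5 lies at chr13:73054976-73077538, ELF3 at chr1:202010587-202017183, OVOL2 at chr20:18024152-18059188, CLDN4 at chr7:73830996-73832690 and ST14 at chr11:130159782-130210362. The series' design text names 6 of the lines and not MV411, whose samples carry the same kinds of label. Each class is represented by few lines, and each line by 1 tumour, so differences between the classes are differences between these lines.

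Epithelial cells are joined into sheets by adherens and tight junctions, and they keep this state through transcription factors that switch on junction genes and hold back mesenchymal programmes. SMARCA4 and SMARCA2 are the alternative ATPase subunits of the BAF complexes, which use ATP to move nucleosomes and keep enhancers open. Carcinomas arise from epithelia, whereas melanocytes, muscle precursors and myeloid cells do not belong to that lineage.

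The lists held 114291 to 431956 peaks per sample and were made with a lenient limit of p, so peaks were counted as strict only where −log10 q reached 5 or more. A sample had 1412 to 121774 strict peaks. The group mean was lower with FHT-1015 in every line, at 53196 against 112752 in MV411 and 22955 against 24275 in HCT116, and 2 FHT-1015 samples of 92-1 held 1412 and 2037. The lists give no read counts, so sequencing depth is unknown, and less accessible DNA cannot be told apart from a poorer library. Markers of lineage, 6 genes a list, matched the labels in part. Of the skeletal muscle genes 5 had a strict peak at the start in 3 of 3 DMSO samples of RD, against 0 or 1 gene in each other line, and of the myeloid genes 4 did in MV411, against 0 or 1. MYOG, PAX7, CD33 and PTPRC had one in no DMSO sample of another line, whereas MYOD1 and SPI1 were each open in 3 of 3 samples of a pair of carcinoma lines and CHRNA1 in those of DU4475 and MV411. The melanocytic genes did not mark the melanomas: MITF was open in 3 of 3 samples of all 7 lines, TYR, MLANA and SOX10 in at most 1 of 3 of 92-1 or A375, and 2 genes of the list were open in 3 of 3 samples of 92-1 and 1 in A375, against 2 or 3 in the other lines. In 3 of 3 samples, 3 prostate genes were open in 22RV1 and 3 in RD, 0 intestinal genes in HCT116, and 3 breast genes in DU4475, with 4 in 22RV1 and 4 in MV411.

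The starts of CDH1, EPCAM, ESRP1, GRHL2, ELF3 and ST14 had strict peaks in the carcinoma lines and in at most 2 of 12 other DMSO samples. A gene start counted as open in a sample when a strict peak had its summit within 1 kb of it. This measure was chosen after the data were seen, and it is given as a description. Over all genes, 3627 starts were open in 3 of 3 DMSO samples of 92-1, against 7575 to 12257 in each other line. A start that was not open in 92-1 therefore says less. CDH1 encodes E-cadherin, the adhesion molecule of adherens junctions, and its start was open in 9 of 9 carcinoma and 0 of 12 other DMSO samples. ESRP1, a splicing factor that sets epithelial isoforms, gave the same 9 of 9 and 0 of 12. EPCAM, an epithelial surface adhesion molecule, was open in 8 of 9 and 0 of 12, with HCT116 at 2 of 3. GRHL2, a grainyhead factor that activates junction genes, was open in 7 of 9 and 0 of 12, with DU4475 at 1 of 3. ELF3, an epithelial factor of the ETS family, was open in 9 of 9 and 1 of 12, the exception being an MV411 sample. ST14 encodes matriptase, a membrane serine protease of epithelia, and was open in 9 of 9 and 2 of 12, both in MV411. With 3 lines against 4, an exact two-sided permutation test cannot go below p = 0.0571.

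**Figure D1:**
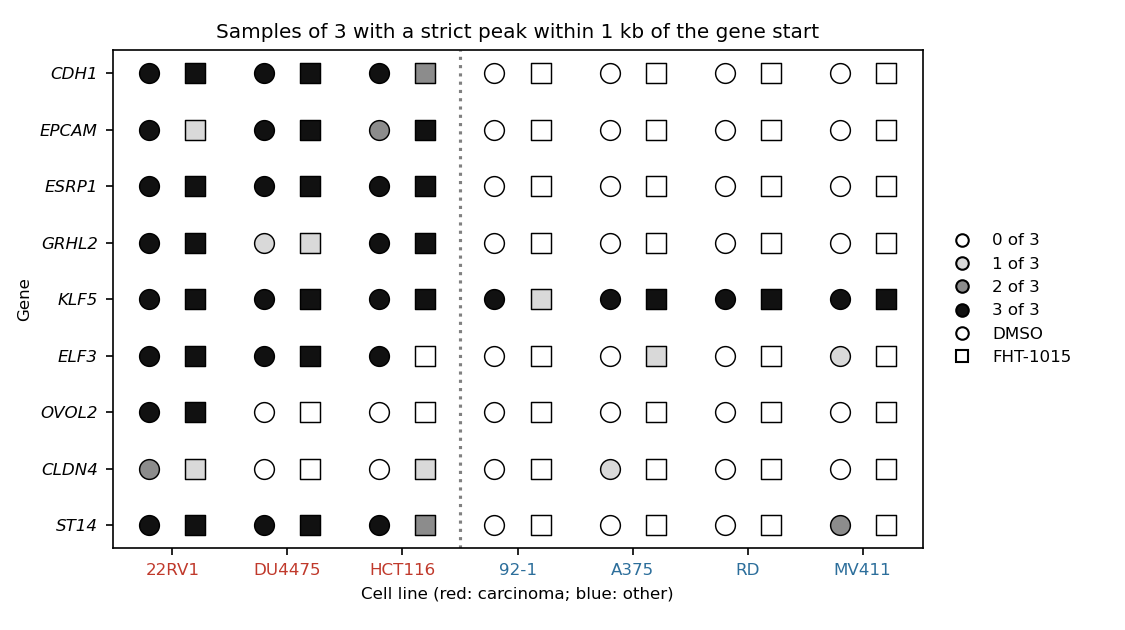
Number of samples, of 3, with a strict peak within 1 kb of the start of each gene (rows), for the 7 lines (columns) with DMSO (circles) and FHT-1015 (squares). Black is 3 of 3 and white 0 of 3. CDH1 and ESRP1 are black in all carcinoma lines with DMSO and white in the other 4 lines, whereas KLF5 is black in all 7.

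The remaining members did not follow this division. KLF5, a zinc-finger factor of proliferating epithelium, was open at its start in 9 of 9 carcinoma and 12 of 12 other DMSO samples. OVOL2, a repressor of mesenchymal genes, was open in 3 of 9 and 0 of 12, and all 3 samples were of 22RV1. CLDN4, a tight-junction claudin, was open in 2 samples of 22RV1 and 1 of A375. In all, 6 of 9 members were open in at least 7 of 9 carcinoma and at most 2 of 12 other samples, against 0.676% of the 19970 genes (135 genes). This count depended on the peak limit. It was 1 of 9, CDH1, when every deposited peak counted (0.351% of genes), since the other samples then had a peak at EPCAM and GRHL2 in 4 of 12 each and at ESRP1, ELF3 and ST14 in 5 of 12 each. It was 3 of 9 at a limit of −log10 q of 2 (CDH1, EPCAM and ESRP1, 0.846% of genes), and 3 of 9 with the 20000 strongest peaks of each list (CDH1, ESRP1 and ST14, 1.45% of genes). The stricter pattern of 9 of 9 and 0 of 12 was met by 2 of 9 members and by 0.11% of all genes (22 genes). The stricter count was 1 at a limit of −log10 q of 2, and 0 when every deposited peak counted, where a peak lay at CDH1 in 2 of 12 other samples.

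A wider list of 44 epithelial genes gave 14 genes in at least 7 of 9 carcinoma and at most 2 of 12 other samples, and 2 when every deposited peak counted. Among them were the tight-junction genes CLDN3, CLDN7, OCLN, MARVELD2, MARVELD3 and TJP3, the polarity gene CRB3, ESRP2, the paralog of ESRP1, and CDH3, the P-cadherin gene next to CDH1. CLDN7, MARVELD2 and LSR, a gene of tricellular junctions, met the stricter pattern of 9 of 9 and 0 of 12. None of 10 mesenchymal genes did the same, and VIM, the vimentin gene, was open in 2 of 9 carcinoma and 11 of 12 other samples. ZEB1, a repressor of CDH1, was open in 7 of 9 and 6 of 12, and SNAI1, another, in 7 of 9 and 9 of 12.

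Fold enrichment at the start, the authors' ratio of a peak to its background, differed among members and among carcinoma lines. At CDH1 it was 10.4, 14.9 and 16.3 in the DMSO samples of 22RV1, 7.53, 7.97 and 7.49 in DU4475, and 11, 8.7 and 15.2 in HCT116. No deposited peak lay there in 92-1 or MV411 with DMSO, while A375 and RD each had 1 sample with a peak, of 2.46 and 3.14. ST14 reached 17.6, 23.8 and 24 in 22RV1, and 7.07, 6.36 and 8.25 in DU4475. The weak peak of ST14 in MV411 had 5.28, 4.25 and 4.07. At GRHL2 the values were 6.71, 14.3 and 12.2 in 22RV1 and 8.04, 7.65 and 9.54 in HCT116, but 4.57, 2.67 and 2.57 in DU4475. In DU4475 a stronger peak lay 1.51 kb downstream of the GRHL2 start, at 9.71, 9.35 and 8.1. These folds come from separate lists and describe peaks within each list, so no test was made between lines.

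RefSeq promoter sequences (GRCh38.p14) matched KLF5, ELF3 and CLDN4, and they are shown because these starts behaved differently: open in every line, open in carcinoma lines, and hardly open at all. For each, the 250 bases before the start are given, 5′ to 3′ on the plus strand. Capitals mark matches, on either strand, to the E-box CACCTG, the box CCAAT, the TATA-like TATAAA, the Sp/KLF box GGGCGGG and the AP-1 core TGANTCA.
KLF5, chr13:73058755-73059004: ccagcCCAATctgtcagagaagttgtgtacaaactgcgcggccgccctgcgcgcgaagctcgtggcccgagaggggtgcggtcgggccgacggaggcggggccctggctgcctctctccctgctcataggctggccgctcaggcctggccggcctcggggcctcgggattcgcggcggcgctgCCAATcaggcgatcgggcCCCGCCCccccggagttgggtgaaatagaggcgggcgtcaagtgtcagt
ELF3, chr1:202010337-202010586: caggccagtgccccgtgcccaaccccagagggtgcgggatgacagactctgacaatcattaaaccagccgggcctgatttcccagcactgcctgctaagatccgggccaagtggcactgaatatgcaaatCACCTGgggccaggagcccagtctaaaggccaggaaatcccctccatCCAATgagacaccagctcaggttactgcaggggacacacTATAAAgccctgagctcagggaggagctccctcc
CLDN4, chr7:73830746-73830995: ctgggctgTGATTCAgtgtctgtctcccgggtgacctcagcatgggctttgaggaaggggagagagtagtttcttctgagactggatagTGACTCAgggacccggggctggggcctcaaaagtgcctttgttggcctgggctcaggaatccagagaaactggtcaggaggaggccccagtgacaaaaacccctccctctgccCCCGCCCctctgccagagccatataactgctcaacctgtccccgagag

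The listed start of KLF5 shown, at 73059005, was the open one. The other listed start, at 73054976, had no deposited peak within 1 kb in any of the 42 samples. Over 300 bases that reach 50 past the start, the open KLF5 window had 71.3% G and C and an observed to expected CpG ratio of 0.978. The ELF3 window had 59% and 0.269, and the CLDN4 window 59% and 0.192. The medians over 35116 windows were 58.7% and 0.579. The KLF5 window held 2 CCAAT boxes, at positions -245 and -67, and a GGGCGGG box at -49. The ELF3 window held CACCTG, the core bound by ZEB and SNAI repressors, at -120, a CCAAT box at -73 and TATAAA at -34. The CLDN4 window held TGANTCA at -242 and -161, and a GGGCGGG box at -48. Over all windows, CACCTG occurred in 20.6%, CCAAT in 34.6%, TATAAA in 11.5%, GGGCGGG in 33.1% and TGANTCA in 7.71%. AACCGGTT and the looser AACNNGTT, forms of the grainyhead motif, occurred in 0.134% and 3.52% of windows and in none of these. CCGGAAG, an ETS core, GGGTGGG, a KLF core, and GGAATG, a TEAD core, occurred in 10.3%, 19.6% and 14% and in none of these. The general E-box CANNTG, which includes CACCTG, occurred in 68.7% of windows, in 2 places at ELF3, 2 at CLDN4 and 1 at KLF5, and is not capitalised. In DU4475 the strict summit near the ELF3 start fell outside the 300 bases in 3 of 3 DMSO samples, whereas in 22RV1 and HCT116 it fell inside in 3 of 3.

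Over the whole 50 kb windows the number of strict peaks did not separate the carcinoma lines from the others. CDH1 had 9, 6 and 6 strict peaks in 22RV1 with DMSO, 4, 7 and 7 in DU4475, and 2, 2 and 1 in HCT116. It had 5, 0 and 0 in 92-1, 9, 9 and 1 in A375, 7, 8 and 5 in RD, and 7, 8 and 6 in MV411. The groups overlapped throughout, and RD, with no strict peak at the CDH1 start, had a mean of 6.67 in the window against 7 in 22RV1. GRHL2 had 14, 13 and 13 in MV411, the most of any line, against 9, 11 and 10 in 22RV1, 3, 2 and 2 in DU4475 and 2, 3 and 2 in HCT116. ST14 had 13, 13 and 9 in MV411, 9, 12 and 9 in DU4475, 5, 9 and 9 in 22RV1, 3, 3 and 5 in HCT116, and 0 in every RD sample. EPCAM was highest in DU4475, at 12, 12 and 10, and ELF3 likewise, at 12, 10 and 9. KLF5 ranged from 1 to 6 in the DMSO samples, OVOL2 from 0 to 6, ESRP1 from 2 to 13 and CLDN4 from 0 to 11.

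**Figure D2:**
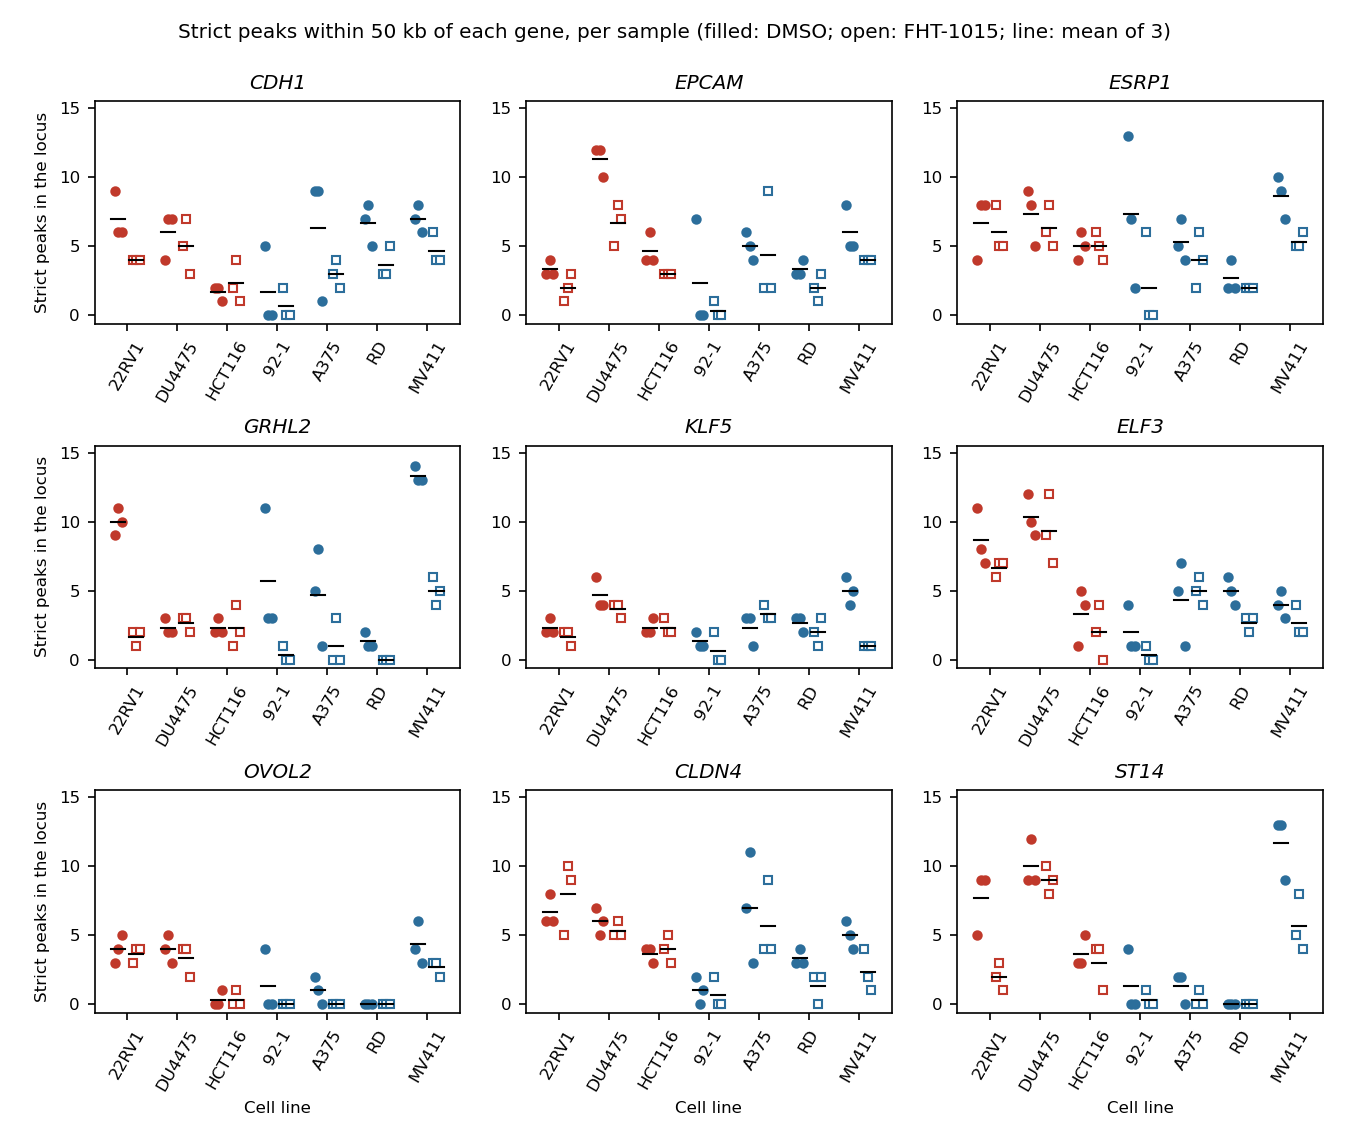
Strict peaks within 50 kb of each gene, one panel per gene, for each sample of the 7 lines (x axis). Red marks carcinoma and blue other lines, filled circles DMSO, open squares FHT-1015, and the short line the mean of 3. At GRHL2 the DMSO samples of 22RV1 and MV411 stand at 9 to 14 and fall to between 1 and 6 with FHT-1015.

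With the line as the replicate, 0 of 9 members had more strict peaks in the carcinoma lines (limma on log2 of strict peaks + 1, adjusted p = 1 for each, and likewise 0 by an exact permutation test over the lines), and 0% of 18536 genes passed. At an unadjusted p under 0.05, 1 member passed against 0.378% of the genes tested. That member was ST14, with a difference of 1.54 ± 0.66 (SE) on the log2 scale, an unadjusted limma p of 0.0194 and an exact permutation p over the 7 lines of 0.229. The other differences ran from -0.15 at GRHL2 to 0.78 at ELF3. The median was 0.55 over the members and -0.005 over all genes. No member, and 0 of 19970 genes, had all 9 carcinoma samples above all 12 others. The summed strict peaks of the 9 loci followed the total of the sample. They were 52, 61 and 56 in 22RV1, 66, 65 and 55 in DU4475, 22, 31 and 28 in HCT116, and 72, 68 and 55 in MV411. Across the 21 DMSO samples the sum and the total of strict peaks had a Pearson r of 0.825, given as a description, since the points share their libraries. The 5 genes whose strict peaks tracked the sum most closely over those samples were CHURC1-FNTB (r = 0.948), FNTB (0.947), SFSWAP (0.944), BEAN1 (0.941) and CIDEB (0.934), and the first pair overlap each other.

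Single elements away from the starts also differed. The 9 loci held 199 regions of 500 bp, and 5 of them were called in at least 7 of 9 carcinoma and 0 of 12 other DMSO samples, against 0.0879% of the 315189 regions of the genome. Those at the starts of CDH1, ESRP1 and GRHL2 made up 3 of the 5. Another lay 31.6 kb downstream of the KLF5 start, outside any protein-coding gene (chr13:73090364-73090863), and was called in 2 of 3 samples of 22RV1, 3 of 3 of DU4475 and 3 of 3 of HCT116. The remaining region lay 12.6 kb downstream of the ELF3 start, also outside any protein-coding gene (chr1:202022965-202023464), and was called in 3, 3 and 2 of 3 in the same order. KLF5, whose start was open in every line, had a distant element that was strict in no other line with DMSO, and in 1 sample of 92-1 with FHT-1015. When all deposited peaks were counted it was also found in 3 of 3 DMSO samples of A375, 1 of 92-1 and 1 of MV411. A region 24.2 kb upstream of the EPCAM start was called in 8 of 9 carcinoma samples and 1 of 12 others. Conversely, 23 of the 199 regions were called in all 3 DMSO samples of MV411, the line with the most strict peaks, and in no DMSO sample of another line, against 12.8% of the regions of the genome, so the share at these loci was near the background. Of the 23, 6 were at GRHL2, 4 at ST14 and 4 at ESRP1.

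Strict peaks were fewer with FHT-1015 at 8 of 9 loci over the 7 lines, as they were for 54.1% of 19790 genes. They were more numerous at none (0.00505% of genes, and no member at an unadjusted p under 0.05). The mean total of strict peaks per sample was also lower in every line. The test was an exact stratified permutation within lines with Benjamini-Hochberg adjustment over all genes. GRHL2 stood lowest. Its strict peaks went from 9, 11 and 10 to 2, 1 and 2 in 22RV1, from 14, 13 and 13 to 6, 4 and 5 in MV411, from 11, 3 and 3 to 1, 0 and 0 in 92-1, and from 2, 1 and 1 to 0, 0 and 0 in RD. The treated samples lay below all DMSO samples in those 4 lines. In A375 they went from 5, 8 and 1 to 0, 3 and 0, which overlap. In DU4475 they went from 3, 2 and 2 to 3, 3 and 2, and in HCT116 from 2, 3 and 2 to 1, 4 and 2, which overlap too. Summed over lines, GRHL2 counted 119 such peaks in the control samples and 39 in the treated ones, a mean difference of -1.18 on the log2 scale (exact stratified permutation, adjusted p = 0.000461), against a median of -0.4 over all genes. Among the genes of the epithelial, mesenchymal and lineage lists, ESR1 at -1.29, LAD1 at -1.25 and ZEB2 at -1.22 fell further. GRHL2 is also the longest member, at 189 kb against 1.7 to 98.2 kb for the others. The median over all genes takes no account of length, and whether length bears on the fall was not tested.

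The other 7 loci that fell did so by about as much as genes in general. The mean log2 differences and adjusted p of the same exact stratified permutation test were -0.59 and 0.00303 for ST14, and -0.55 and 0.00348 for EPCAM. They were -0.40 and 0.0116 for CDH1, -0.48 and 0.0316 for ESRP1, -0.44 and 0.0355 for ELF3, -0.39 and 0.0394 for KLF5, and -0.35 and 0.046 for OVOL2. CLDN4 had -0.34 and 0.245 and did not pass. When strict peaks were counted per 10000 strict peaks of the sample, a scaling added after the data were seen, only GRHL2 among the members was still lower, by -0.43 ± 0.10 (SE) on the log2 scale (limma adjusted p = 0.00288), as were 6.36% of 18083 genes, while 7.36% were higher. The other 8 lay between -0.10 and 0.08. With the 20000 strongest peaks of each list, 0 of 9 members fell (3.83% of genes fell and 17% rose), and 1 member, GRHL2, passed unadjusted, with -0.51 and an exact stratified permutation adjusted p of 0.0612. Without 92-1, 4 members passed (GRHL2 adjusted p = 0.00302, exact stratified permutation), and without MV411, 3 did. Leaving out replicate 1 of 92-1 with DMSO alone left 4.

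With FHT-1015, 30 of the 44 genes of the wider epithelial list had fewer strict peaks and 0 had more (exact stratified permutation, adjusted over all genes), against 54.1% and 0.00505% of all genes. The median difference was -0.42 on the log2 scale in that list, -0.44 over the members and -0.4 over all genes. The largest falls in that list were -1.25 at LAD1, -1.08 at TP63 and -0.99 at CDS1. KRT7, EHF and KRT19 had -0.86, -0.85 and -0.83. OCLN, which encodes occludin, had -0.60, CDH3 -0.67 and MYO5B, a motor of apical traffic, -0.65. All of these passed, whereas CLDN7 at -0.17 and LSR at -0.16 did not. Of the 10 mesenchymal genes 8 had fewer and 0 more, with a median of -0.71. The lists of lineage markers, of 6 genes each, gave 4 for melanocytic genes, 6 for skeletal muscle, 3 for myeloid, 3 for prostate, 6 for intestinal and 5 for breast, again against 54.1% of all genes.

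**Figure D3:**
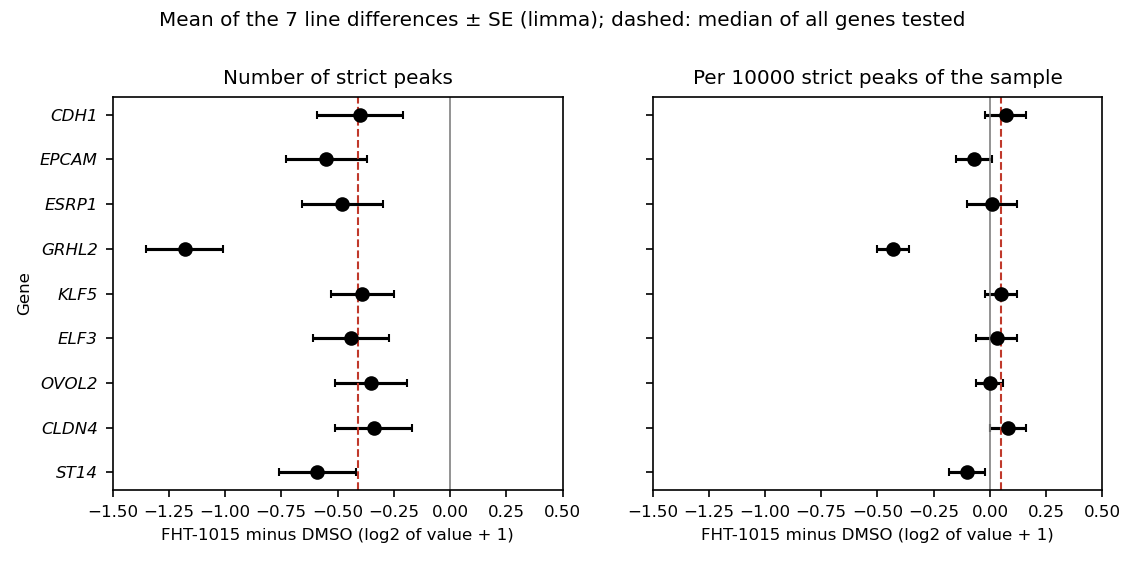
Mean of the 7 within-line differences, FHT-1015 minus DMSO, in log2 of the value + 1, with SE from limma, for the number of strict peaks (left) and for strict peaks per 10000 of the sample (right). The dashed line is the median of all genes tested. GRHL2 lies at -1.18 and -0.43, left of the dashed line in both, and the other members lie near it.

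By line, 14 of 63 pairs of a member and a line had all FHT-1015 samples below all DMSO samples, against 21.2% of such pairs over all genes, and 0 of 63 lay above (0.412%). In 22RV1 these were CDH1, GRHL2 and ST14 (28.3% of genes). In RD they were GRHL2, ELF3 and CLDN4 (39.7%), and in MV411 EPCAM, ESRP1, GRHL2, KLF5 and ST14 (57.8%). EPCAM was the member lower in DU4475 (11.6%), at 12, 12 and 10 and then 5, 8 and 7, and in HCT116 (1.97%), at 4, 6 and 4 and then 3, 3 and 3. GRHL2 was the one in 92-1 (7.62%), and A375 had none (1.26%). With 3 samples against 3 an exact test cannot go below p = 0.1, so a limma fit over all samples gave adjusted values. GRHL2 differed by -2.07 on the log2 scale in 22RV1 (limma adjusted p = 0.0103, with 1.35% of genes called lower), by -2.19 in 92-1 (limma adjusted p = 0.000416, 43.9% of genes) and by -1.19 in RD (limma adjusted p = 0.0483, 23.6% of genes). Of these calls, that in 92-1 was also made per 10000 strict peaks, at -1.20 (limma adjusted p = 1.18e-05, 19.2% of genes), and with the 20000 strongest peaks, at -1.64 (limma adjusted p = 0.000796, 10% of genes). The 2 treated samples of 92-1 with 0 strict peaks at GRHL2 held 2037 and 1412 in all, too few for a 0 to say much. Their 20000 strongest peaks reached down to −log10 q of 1.8 and 1.71, against 4.24 to 18.63 with DMSO, so neither check can settle the call. The call in 22RV1 was lost per 10000 strict peaks, at -0.81 (limma adjusted p = 0.0741), and with the strongest peaks the direction turned, to 0.53 (limma adjusted p = 0.441). In RD the values were -0.37 (limma adjusted p = 0.236) and -1 (limma adjusted p = 0.153). KLF5 differed by -1.57 in MV411 (limma adjusted p = 0.00689, 9.95% of genes), from 6, 4 and 5 to 1, 1 and 1. That call was lost too, at -0.28 per 10000 strict peaks (limma adjusted p = 0.883) and -0.39 with the strongest peaks (limma adjusted p = 0.341), in a line whose strict peaks fell from a mean of 112752 to 53196. In 92-1, ESRP1 and ELF3 were also called lower (limma adjusted p = 0.00253 and 0.0456), where 2 treated samples held 1412 and 2037 strict peaks. Per 10000 strict peaks, ESRP1 was still called there, at -0.92 (limma adjusted p = 0.0143), and ELF3 was not, at -0.45 (limma adjusted p = 0.175). With the strongest peaks ESRP1 had -0.75 (limma adjusted p = 0.0763), and ELF3 turned to 0.97 (limma adjusted p = 0.0524). ST14 in 22RV1, from 5, 9 and 9 to 2, 3 and 1, had a limma adjusted p of 0.071. No member was called in DU4475, HCT116 or A375, where 0.531%, 0.00553% and 0.282% of genes were. At an unadjusted limma p under 0.05 these were 0 members in DU4475 (6.26% of genes), 0 in HCT116 (1.33%), and GRHL2 and OVOL2 in A375 (5.25%). Counted as strict peaks, the effect of FHT-1015 was called different between the carcinoma and the other lines for 0 of 9 members (0.122% of genes were called less negative in the carcinoma lines). The lowest limma adjusted p for that difference was 0.236, at GRHL2, where the effect was less negative in the carcinoma lines, by 0.89 on the log2 scale. With the 20000 strongest peaks of each list GRHL2 was called, at 1.16 (limma adjusted p = 0.0363, 0.168% of genes), and per 10000 strict peaks it was not, at 0.40 (limma adjusted p = 0.279, 0.199% of genes). At an unadjusted limma p under 0.05, 2 members passed, GRHL2 and CLDN4, as did 15.9% of genes.

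The starts of the members mostly kept their strict peak with FHT-1015 in the carcinoma lines. In 22RV1, 7 of the 8 starts open in 3 of 3 DMSO samples were also open in 3 of 3 with FHT-1015 (86.7% of all such starts), EPCAM went from 3 to 1, and none went to 0 (3.44%). In DU4475 all 6 were (96.1%, with 0.337% at 0).  In HCT116, 3 of 6 were (88.8%), CDH1 and ST14 went from 3 to 2, and ELF3 went from 3 to 0, which 0.528% of starts did. The folds at the ELF3 start in HCT116 were 7.23, 7.43 and 6.03 with DMSO. With FHT-1015, 2 samples had a peak there, of 5.23 and 4.65, and the third had none listed. In 22RV1 the folds at ELF3 were 13.2, 13 and 16.6 with DMSO and 10.8, 8 and 5.64 with FHT-1015, and those at OVOL2 were 11, 16.1 and 11.1 and then 5.42, 5.48 and 6.29. ESRP1 had 10.1, 10.5 and 10.2 in 22RV1 with DMSO and 11.7, 14.1 and 9.55 with FHT-1015. The start of KLF5 was open in all FHT-1015 samples except 2 of 92-1, the samples with few strict peaks.

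**Figure D4:**
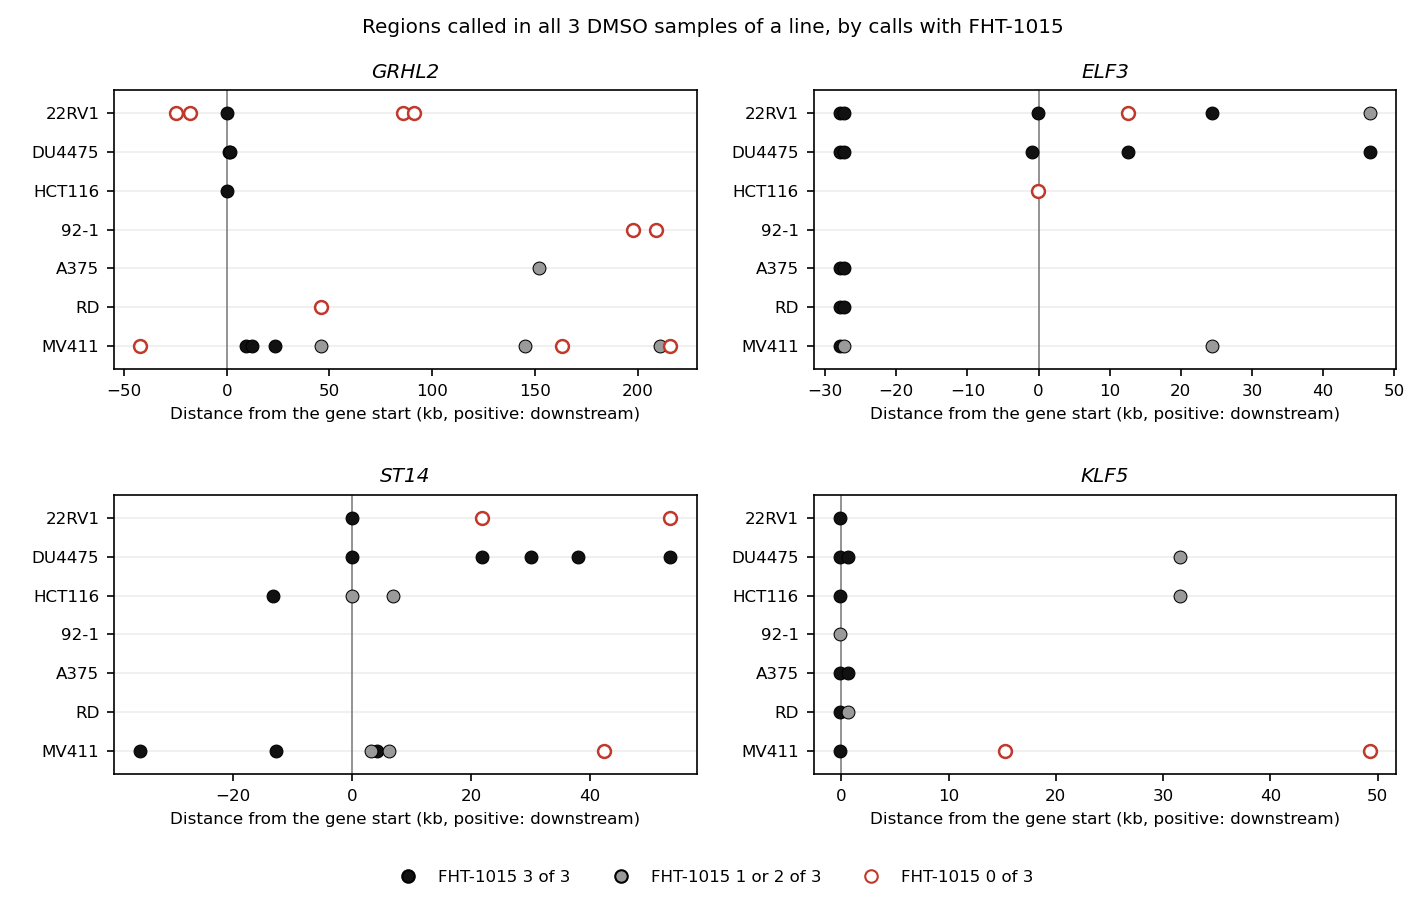
Regions of 500 bp called in all 3 DMSO samples of a line at 4 loci, by distance from the gene start in kb (x axis) and line (y axis). Black points were called in 3 of 3 FHT-1015 samples, grey in 1 or 2 and open red in 0. At GRHL2 the start region of 22RV1 is black and the 4 distant regions are open.

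Nearly all losses were of distant regions. Of 156 cases of a region called in all 3 DMSO samples of a line, 22 (14.1%) were called in no FHT-1015 sample, against 22.5% over the genome, and 0 were gained (0.583% over the genome). Farther than 1 kb from any gene start 21 of 83 were lost (25.3%), against 34.4% over the genome. Within 1 kb of a start 1 of 73 was (1.37%), against 3.99%. GRHL2 held 10 of the 22 losses. In 22RV1 it had 5 regions in 3 of 3 DMSO samples. The 1 at its start was kept and the other 4 were lost, at 24.5 and 18 kb upstream and at 85.9 and 91.1 kb downstream inside the gene. In that line 47.4% of distant regions of the members were lost and 37.2% of those of the genome. MV411 lost 3 of its 9 regions at GRHL2, against 32.7% of its regions over the genome and 38.3% of its distant ones. RD lost its only region there, against 20.8% of all and 44.1% of distant regions. In 92-1 both regions were lost, against 40.3% of all and 57.9% of distant regions, and they lay inside the neighbouring gene NCALD. The regions lost in these lines all lay farther than 1 kb from any gene start.

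Several distant regions of the carcinoma lines were no longer called in 1 line and remained in another. The lines also differed in this over the genome, where 37.2% of distant regions were lost in 22RV1, 15.3% in DU4475 and 12.1% in HCT116. The region 12.6 kb downstream of ELF3 went from 3 to 0 samples in 22RV1, with folds of 7.64, 7.01 and 10.2 and then 2.59, 3.32 and 3.62, and from 2 to 0 in HCT116, while DU4475 kept 3 of 3. Inside ST14, 21.8 kb downstream of its start (chr11:130181303-130181802), a region went from 3 to 0 in 22RV1, with folds of 8.86, 14.6 and 10 against 1 weak peak of 4.39, and stayed at 3 of 3 in DU4475. The same held 53.5 kb downstream of the ST14 start. A region 2.6 kb upstream of CLDN4 went from 3 to 0 in 22RV1 and stayed at 2 in DU4475. The region 31.6 kb downstream of KLF5 went from 2 to 0 in 22RV1, from 3 to 2 in DU4475 and from 3 to 1 in HCT116. In DU4475 the 1 loss was 29.1 kb upstream of EPCAM (chr2:47339931-47340430), from 3 to 0. Whether these regions act on the named genes was not tested, and the windows also hold neighbours, among them CDH3 and TANGO6 at CDH1, DPY19L4 at ESRP1, PIBF1 at KLF5, TIMM17A and RNPEP at ELF3, MGME1 at OVOL2, METTL27 and TMEM270 at CLDN4, and APLP2 and ZBTB44 at ST14.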

How the data were processed

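ATAC-seq peak lists of 42 samples (14 groups of 3) were used, 1 list per sample. The submitters' processing notes name Bowtie2, Picard, MACS2, limma and HOMER, without role or version, and the build hg38. Any shift or filter of reads was not stated in the labels. The fold enrichment in the lists is the authors' ratio of a peak to its background. The authors deposited each p-value and q-value on the −log10 scale. The deposited score was not used. These values served to describe, rank or filter peaks within 1 list.

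Summits on chromosomes 1 to 22 and X were assigned to 19970 RefSeq protein-coding genes (GRCh38.p14) with 50 kb on each side. The starts of KLF5, ELF3 and CLDN4 came from RefSeq promoters, and those of the other 6 members from the gene end where transcription is known to begin. Among all genes 15811 had a listed start, and for the 4153 others either end counted. Regions were 500 bp windows around strict summits, called in a sample by a strict peak overlapping at least 100 bp. Carcinoma and other lines were compared with limma 3.58.1 (R 4.3.3) on log2(strict peaks + 1) averaged per line, for genes with a mean of at least 1. FHT-1015 was compared with DMSO by an exact stratified permutation test within lines, and per line by limma over all samples, with Benjamini-Hochberg adjustment over all genes and a threshold of 0.05. Both were tested on simulated data. Samples of a group shared 0.0367% to 6.37% identical intervals, so none was counted as a duplicate. The labels call replicates biological without naming cultures. Members, lists and tests were chosen with earlier results of these data known. All 9 members were named, with regions at their starts, those most frequent in carcinoma over other samples, and those lost. The alternatives tried were other limits of q, the strongest peaks, other windows and overlaps, other tests, a replicate block and left-out lines or samples.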

Additional observations from a re-analysis of the deposited data

Results flagged for a closer look

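A sample or line far from the rest was looked for at each member in the DMSO samples, among the 4 other lines and among the 9 carcinoma samples, which made 18 groups. Chance would mark about 1 group in 20 if the values were independent. The 9 carcinoma samples are 3 replicates of each of 3 lines, so that rate need not hold. At CDH1, 92-1 had a mean of 1.67 strict peaks, below A375, RD and MV411, and 2 of its samples had 0. Those 2 samples held 25397 and 14266 strict peaks in all, against 66350 in replicate 1. At ST14, MV411 had a mean of 11.7, above the 3 remaining lines. At KLF5, replicate 1 of DU4475 had 6 strict peaks, the most among the 9 carcinoma samples.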

How the results depend on the processing

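The count of members with more strict peaks in carcinoma lines was 0 under every alternative run. The exact permutation test over the lines, which was among them, could give no other count. The count with fewer strict peaks with FHT-1015 (8) was 0 with all deposited peaks, 1 at −log10 q of at least 2, 0 with the 20000 strongest, 5 with windows of 10 kb and 1 per 10000 strict peaks. It was 4 without 92-1, 3 without MV411, 5 in the 4 lines whose file names hold the word small, which no source used here explains, and 0 in the other 3. Leaving out 1 sample gave 4 to 8. The lowest count came without replicate 1 of 92-1 with DMSO, and 5 came without each of replicates 2 and 3 of 92-1 with FHT-1015, replicate 1 with DMSO and 3 with FHT-1015 of DU4475, and replicates 1 and 2 with DMSO and 2 and 3 with FHT-1015 of MV411. Pairs lower without overlap (14) were 8, 9 and 2 at those 3 peak limits, 8 with 10 kb, 9 without MV411 and 4 in the lines without the word small, and 14 to 18 with a sample left out. Pairs higher (0) were 4, 1 and 1 at those limits and 0 to 1 with a sample left out. Members open at the start in all carcinoma and no other samples (2) were 0 with all deposited peaks, 1 at −log10 q of at least 2, 4 without MV411, 5 in the lines without the word small, and 2 to 3 with a sample left out. Lost cases (22) were 4 with the 20000 strongest peaks, 4 where no deposited peak at all could remain, 2 in the lines without the word small, and 22 to 30 with a sample left out. Gained cases (0) were 9, 1 and 3 at the 3 limits and 0 to 3 with a sample left out. Fewer lines or samples also leave fewer cases to count, and the cause of the other changes was not tested.

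With a replicate block, which pairs samples of the same number within a line, 7 of 9 members had fewer strict peaks, and KLF5 no longer passed (exact permutation, adjusted p = 0.0656). Of 21 same-numbered pairs, 4 had a correlation of deviations above 0.1 (from -0.184 to 0.377 over all pairs), and 4 correlated best with their own number. The pairs above 0.1 were all of 92-1 (0.293 and 0.256) or A375 (0.377 and 0.178). Replicate 1 held the most strict peaks in both groups of 92-1, and replicate 2 in both of A375. Whether same-numbered samples were handled together is not stated in the labels.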
